A study of Arabidopsis thaliana with 36 samples.

Results

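The plastid genome of Arabidopsis thaliana carries genes for core subunits of the photosynthetic electron transport chain. They are psa (photosystem I), psb (photosystem II), pet (the cytochrome b6f complex) and ndh (the NADH dehydrogenase-like complex, NDH). Members were all probe sets of the ATH1 array assigned to exactly 1 gene whose symbol is psa, psb, pet or ndh followed by 1 capital letter. The rule found 36 of 22810 probe sets, with 5 psa, 15 psb, 6 pet and 10 ndh genes. A further probe set, for ndhB, was assigned to more than 1 gene copy and was left out. All 36 passed the filter on low intensity that left 15924 probe sets for testing, and all 36 were found in the reference gene table. The rule used gene symbols and no measured value, although the set was proposed with earlier results of these data known.

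Photosystem II takes electrons from water, the cytochrome b6f complex passes them on and pumps protons, and photosystem I delivers them to ferredoxin. The NDH complex returns electrons from ferredoxin to the chain in cyclic electron flow. Many subunits of these complexes are encoded in the nucleus, so each complex needs transcripts from both genomes. Plastid genes are transcribed together in units of several genes and the transcripts are then cut, and most plastid RNA has no stable poly(A) tail.

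The series concerns dormancy and secondary growth, the thickening of stem and hypocotyl by the vascular cambium. Its 36 arrays fall into 12 groups of 3, and 200 to 400 plants were pooled for each RNA sample. Seeds were stratified for 2 days at 4 °C, and plants were grown on compost at 22 °C in continuous light. Xylem and cork were taken from wild-type Col-0, from a MYB61 knockout and from a MYB50 knockout, which lack one of a pair of MYB transcription factors. Hypocotyls were taken in an Ler family (wild type, abi1 and aba1) and in a Col-0 family (wild type, max4 and axr1). The genes named are known for abscisic acid response (ABI1), abscisic acid synthesis (ABA1), strigolactone synthesis (MAX4) and auxin response (AXR1). The alleles, the plants' age and what the cork samples held besides cork are not given in the labels. No probe set was named for any of the 6 mutated genes, so the genotypes could not be checked. Nothing in the labels says that the 3 samples of a group came from separate growths, so the p-values measure the spread between these samples.

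Intensities below are the authors' scaled probe-set values. A log2 difference is a difference of log2(intensity + 16) between groups with its standard error (SE). It is smaller than the log2 of the fold between intensities where a gene is dim. A fold is the plain ratio of mean intensities. "Passed" or "called" means an adjusted p below 0.05 in the limma fit over all 15924 probe sets. In bulk samples such as these, fewer cells of a type and less RNA per cell cannot be told apart.

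Array medians lay between 35.1 and 44.9, and all 36 arrays correlated best with an array of their own group. The separation of tissues was checked on markers. CLE41, a peptide gene of phloem, averaged 354 in Col-0 cork and 27.9 in Col-0 xylem, and FACT, a suberin gene of cork, averaged 114 and 18.2. The secondary wall gene IRX15 averaged 39.2 in Col-0 xylem and 8.50 in Col-0 cork, and 60.4 over all 36 arrays. The marker lists held 4 xylem, 3 phloem and 1 cork gene with a named probe set. In all 3 genotypes CLE41, FACT and the phloem gene SWEET11 were called lower in xylem, and the phloem gene OPS was not. None of the 4 xylem markers was called lower in all 3. Labelled RNA was made with an oligo-dT primer, while the 25S ribosomal RNA control, also a transcript without a long tail, varied from 45.6 to 3027 between arrays. The part of this control in any result was not tested, except that it was used as a covariate in an alternative fit. In the MYB61 knockout, cork replicate 1 had the lowest array weight of the series (0.218), and the MYB50 knockout cork replicate 1 is labelled a repeat.

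Col-0 cork and MYB61 knockout xylem were the extremes for most members. Of the 36 members, 25 had their highest group mean in Col-0 cork and 25 had their lowest in MYB61 knockout xylem. These counts were not made over all tested probe sets, nor were the ratios that follow. The ratio of the highest to the lowest group mean was at least 3 for 8 members and under 2 for 13, with a median of 2.19. It was widest for psbA, which encodes the reaction centre protein of photosystem II that light damages most, with 764 ± 276 (SD, n = 3) in Col-0 cork and 89.4 ± 51.6 in MYB61 knockout xylem, a fold of 8.54. It followed with 5.22 for ndhF (a membrane subunit of NDH), 4.33 for psbZ (a small subunit of photosystem II) and 3.84 for psbC (an inner antenna protein). It was narrowest for psbE, a cytochrome subunit of photosystem II, at 1.57. The median ratio was similar in the 4 groups, at 2.19 for psa, 2.05 for psb, 2.34 for pet and 2.19 for ndh. The dimmest member was psbN, an assembly factor of photosystem II in tobacco, with a mean of 20.3 over all arrays.

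**Figure D1:**
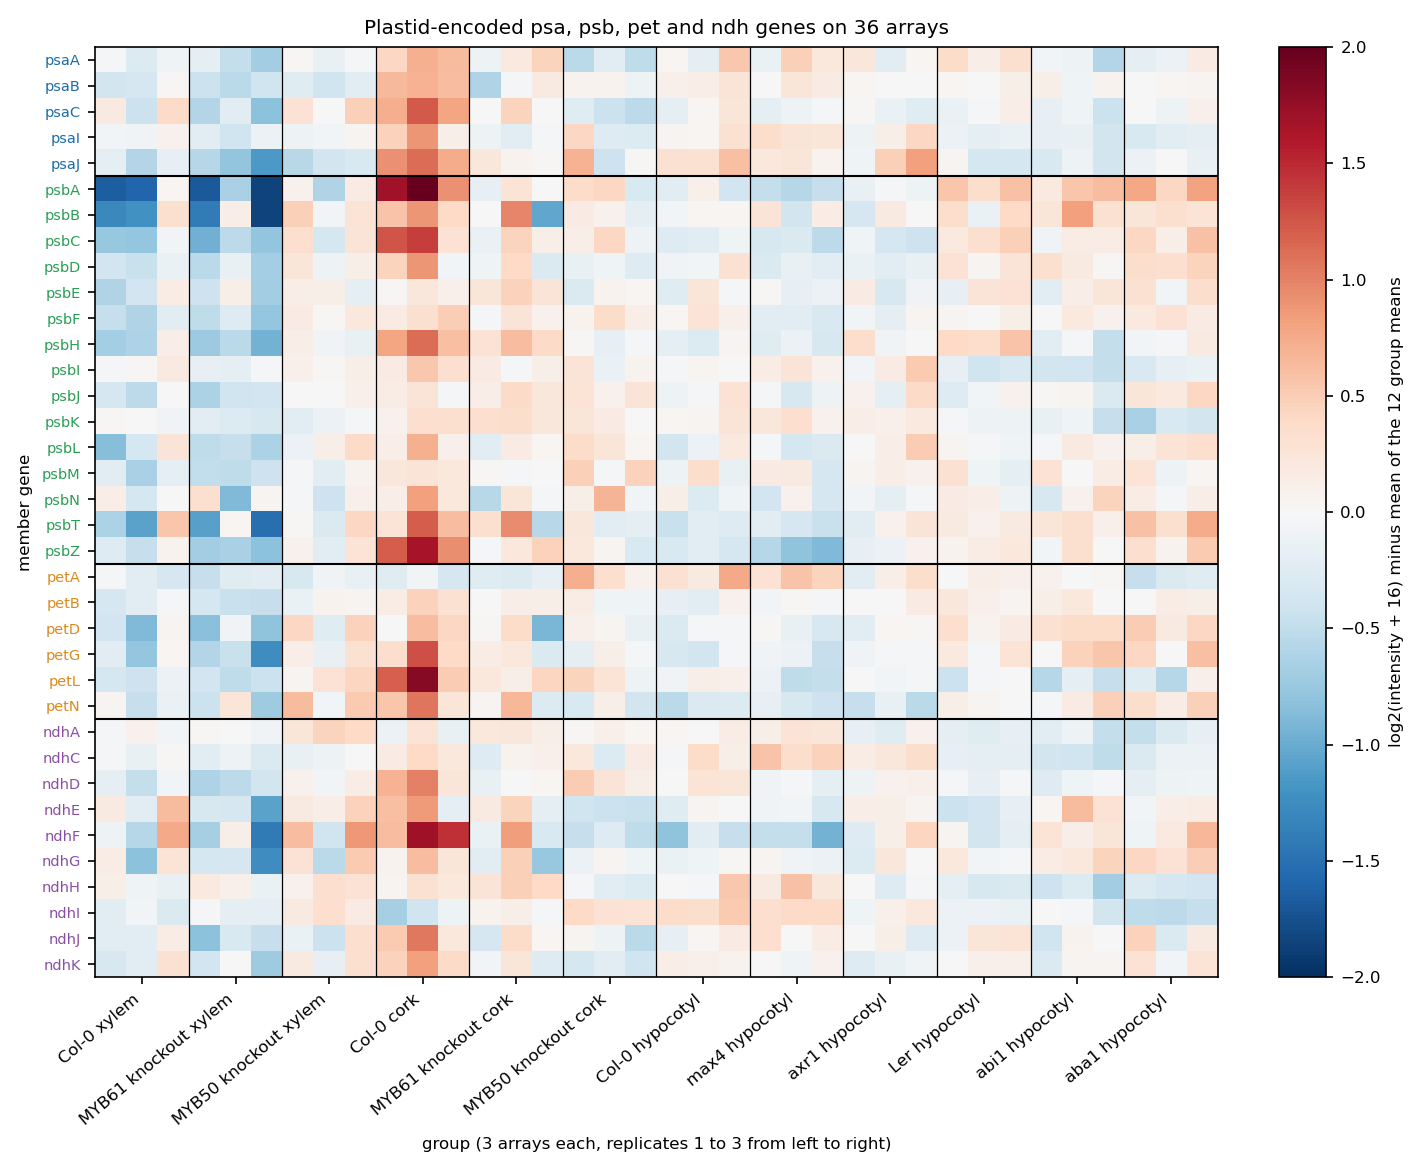
Each row is a member gene and each column an array, in 12 groups of 3, and the colour is log2(intensity + 16) minus the gene's mean over the 12 groups. Of the 36 rows, 25 are highest in Col-0 cork and 25 are lowest in MYB61 knockout xylem, and ndhI, petA and ndhA are among those that do neither.

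Single arrays stood apart within the tissue groups. The mean log2 level over the members was 8.42, 8.81 and 8.35 in the Col-0 cork replicates, and 7.72, 7.55 and 8.07 in those of Col-0 xylem. The second cork array was therefore the highest of its group, and the third xylem array lay nearer to the hypocotyls than to the other xylem arrays. All hypocotyl groups averaged between 7.94 and 8.09 on this scale. Counts of members that moved by over 1.5 times without an array are given with that array named.

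The first question is how xylem and cork differ. Averaged over the 3 genotypes, 26 of 36 members were lower in xylem than in cork and none was higher, while 27.9% of all tested probe sets were called lower and 27.6% higher. All 5 psa, 14 of 15 psb, 4 of 6 pet and 3 of 10 ndh genes were lower. For ndh this is close to the share of all tested probe sets. The median log2 difference was -0.35 over the members and 0.01 over all tested probe sets. Leaving out replicate 2 of Col-0 cork gave 23, and leaving out replicate 3 of Col-0 xylem gave 28. A count over the mean of genotypes hides how far the 3 genotypes differ, so each is described in turn.

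In Col-0, 28 of 36 members were lower in xylem, none was higher, against backgrounds of 20.4% called lower and 19.8% called higher. Over the members the median was -0.71 on the log2 scale, and over all tested probe sets 0.02. Without Col-0 cork replicate 2 the count was 18, and without xylem replicate 3 it was 28. The actin 3' to 5' ratio, a sign of RNA quality, was 1.22 ± 0.14 in Col-0 xylem and 1.54 ± 0.23 in Col-0 cork, and its part in the result was not tested. The scanner background averaged 101 and 73.4 and the 25S control 1245 and 2820, and with either as a covariate the count was 25.

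Photosystem II genes held the widest tissue difference. The psbA intensities were 66.4, 69.4 and 249 in Col-0 xylem and 806, 1018 and 469 in Col-0 cork. The tissues did not overlap, although the third xylem and the third cork array lay closest to each other. The log2 difference was -2.60 ± 0.32 and the fold 5.95 (adjusted p = 5.15e-08, limma). For psbZ the values were 330, 285 and 418 in xylem and 946, 1283 and 773 in cork. Every cork array was above every xylem array, with a log2 difference of -1.48 ± 0.16 (adjusted p = 5.8e-09). The antenna gene psbC followed with -1.50 ± 0.22. Of the 15 psb genes, 13 fell, and psbE and psbN, at -0.39 and -0.46, did not pass.

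Other photosystem II genes fell less far. The antenna gene psbB, whose xylem replicate 3 (305) lay close to cork replicate 3 (323), differed by -1.35 ± 0.39 (adjusted p = 0.0066). The genes psbD and psbF, for a reaction centre protein and a cytochrome subunit, both differed by -0.75. The small subunit genes ran from psbH (-1.23) and psbT (-1.08) through psbL (-0.62), psbM (-0.59) and psbJ (-0.41) to psbI (-0.30) and psbK (-0.26). For psbK the intensities were 764, 754 and 709 in xylem and 793, 954 and 943 in cork. Even this narrow difference left no overlap, while psbT, psbL, psbJ and psbI overlapped between tissues.

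All 5 photosystem I genes were lower in Col-0 xylem without overlap between the tissues, as were 24.6% of all tested probe sets. The small subunit gene psaJ had 670, 507 and 689 in xylem against 1460, 1688 and 1298 in cork. Its cork values lay well clear of its xylem values, at a log2 difference of -1.24 ± 0.20 (adjusted p = 6.73e-06). The reaction centre gene psaB (754, 767 and 992 against 1542, 1580 and 1512) and psaC, whose protein carries the iron-sulfur clusters that reduce ferredoxin (193, 121 and 225 against 291, 419 and 304), both differed by -0.88. The cork replicates of psaB were nearly equal, while those of psaC spread.

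Of the pet genes, 5 of 6 were lower in Col-0 xylem. The small subunit gene petL had 178, 171 and 213 in xylem and 555, 863 and 336 in cork. The groups did not overlap and the third cork array was the lowest, with a log2 difference of -1.47 ± 0.20 (adjusted p = 4.28e-07). The small subunit genes petG (79.9 in xylem, 180 in cork on average) and petN (-0.80 on the log2 scale) fell, as did petD (-0.75), for subunit IV of the complex, and petB (-0.49), for its cytochrome b. The gene that did not pass was petA, for cytochrome f, with 419, 368 and 338 in xylem and 361, 410 and 335 in cork. Its values overlapped fully between the tissues, and the log2 difference was 0.02 ± 0.14.

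The ndh genes were mixed, with 5 of 10 lower in Col-0 xylem. They were ndhF (-1.23), ndhD (-0.89), ndhJ (-0.70), ndhK (-0.63) and ndhC (-0.31). The membrane subunit gene ndhD had 615, 494 and 671 in xylem against 1142, 1421 and 830 in cork, without overlap. By contrast ndhI, which encodes an iron-sulfur subunit, had 687, 772 and 654 in xylem and 499, 605 and 747 in cork. Its groups overlapped and the difference, 0.20 ± 0.10, did not pass. The other 4 that did not pass, ndhA, ndhE, ndhG and ndhH, lay between -0.45 and 0.00.

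In the MYB61 knockout the tissue comparison, added after the data were seen, gave 23 of 36 members lower in xylem and none higher, against backgrounds of 18.6% called lower and 15.3% higher. All 36 differences were negative. Their median was -0.54, with the widest for psbA (-1.43 ± 0.32) and psbH (-1.17 ± 0.16), a small photosystem II subunit. Of the members lower in this genotype, 21 of 23 were also among the 28 of Col-0, an overlap not counted for all tested probe sets. The count was 14 without MYB61 knockout xylem replicate 3 and 15 in a fit of only the arrays compared.

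In the MYB50 knockout the same comparison gave 5 higher and 4 lower members, against backgrounds of 18.5% and 21.7%, and a median log2 difference of 0.04. The 5 that were higher in xylem were psaC, ndhA, ndhE, ndhH and ndhK. The 4 that were lower were psaB, psaJ, psbK and petA. For psaC the intensities were 211, 169 and 241 in xylem and 140, 121 and 113 in cork. Here every xylem array was above every cork array, the reverse of the order in Col-0, and the log2 difference was 0.66 ± 0.17 (adjusted p = 0.00267). For psbA they were 259, 153 and 272 in xylem and 318, 326 and 193 in cork, which overlapped, with a difference of -0.28 ± 0.32. The members lower in xylem in all 3 genotypes were psaB, psaJ and psbK. How many of all tested probe sets were called lower in all 3 was not counted. The count was 5 without MYB50 knockout xylem replicate 1 and 5 without cork replicate 1.

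**Figure D2:**
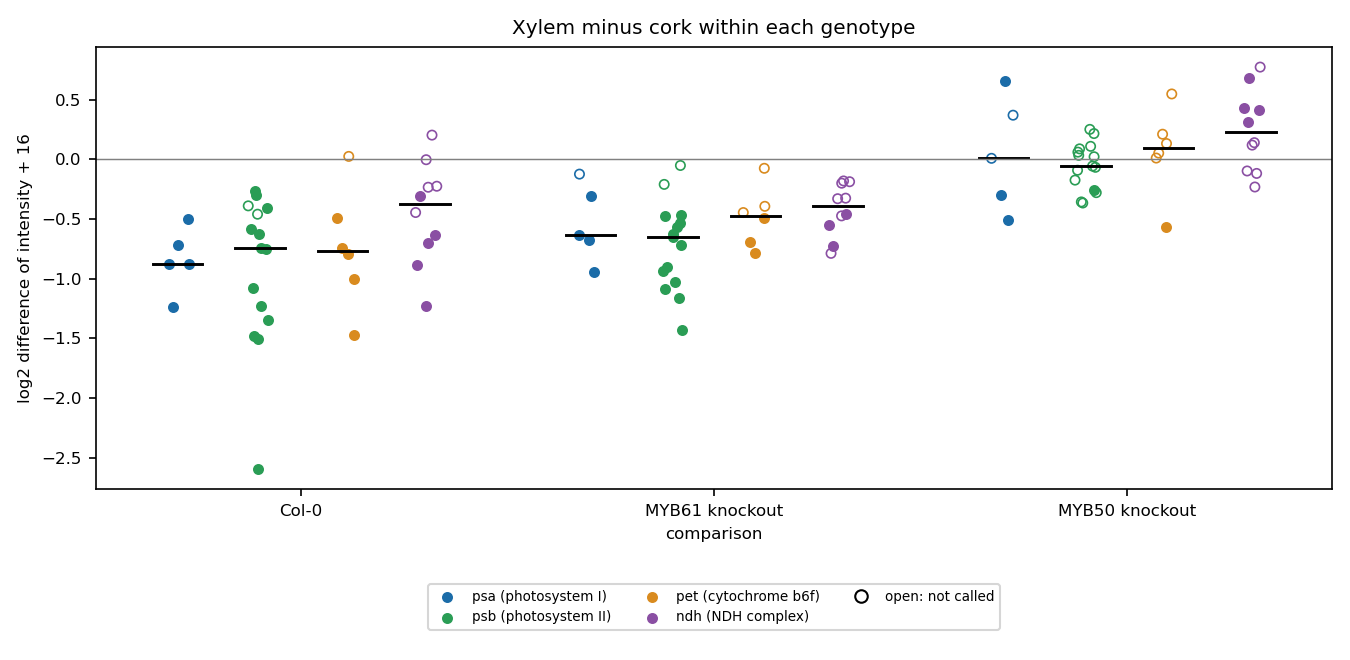
Each point is a member gene, placed at its xylem minus cork difference of log2(intensity + 16) in 1 genotype and coloured by complex. Filled points passed the test and bars are medians. Over all members the Col-0 median is -0.71, the MYB61 knockout median -0.54 and the MYB50 knockout median 0.04.

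Other genes of the photosynthetic apparatus were read beside the members. The 7 plastid genes of ATP synthase and Rubisco were lower in Col-0 xylem in 7 of 7 cases and in the MYB61 knockout in 3 of 7. In the MYB50 genotype 1 was lower and 1 higher. Of 20 plastid genes for the transcription and translation machinery, 10, 2 and 1 were lower in xylem in Col-0 and the 2 knockouts, in the order above, and none was higher. Of all tested probe sets 20.4%, 18.6% and 21.7% were called lower in that order, and 18.5% higher in the MYB50 knockout. The 2 and 1 of 20 lie below these shares, and the MYB50 knockout counts of 1 of 7 are near them. Of the 10 nuclear photosynthesis genes with a named probe set, 8, 9 and 7 were lower in xylem in the same order and none was higher. Of these genes 7 were lower in all 3 genotypes, a share not counted for all tested probe sets. In the MYB50 knockout PSAE-1, a nuclear photosystem I gene, averaged 30.9 in xylem and 252 in cork, and LHCB4.2, a light-harvesting gene, 56.4 and 347. There 27 of the 36 plastid members were not called in either direction.

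The next comparisons ask what each knockout changed within a tissue. They share the Col-0 arrays of that tissue, so the 2 knockouts are not independent of each other. The same Col-0 arrays enter the tissue comparison in Col-0 and the later comparison of knockout effects between tissues. Those counts are therefore not separate results. The mean log2 level over the members was 8.53 in Col-0 cork, 8.09 in MYB61 knockout cork and 8.01 in MYB50 knockout cork. In cork, the MYB61 knockout gave 11 lower and 1 higher member, with 4.11% and 3.89% of all tested probe sets called lower and higher. Lower were 4 of 5 psa, 3 of 15 psb, 1 of 6 pet and 3 of 10 ndh genes. The median log2 difference was -0.47 over the members and 0.00 over all tested probe sets.

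The psbA intensities in MYB61 knockout cork were 214, 295 and 241, against 806, 1018 and 469 in Col-0 cork. All knockout arrays were below all wild-type arrays, with a log2 difference of -1.49 ± 0.32 (adjusted p = 0.0029). Those of psbZ were 389, 465 and 556 against 946, 1283 and 773. They did not overlap, at -1.05 ± 0.16 (adjusted p = 9.53e-05). Among the psa genes psaJ, psaB, psaC and psaI fell by 0.82, 0.80, 0.78 and 0.61 on the log2 scale.

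Lower too were psbC (-0.83), petL (-0.92), ndhF (-1.13), ndhD (-0.70) and ndhK (-0.58). The ndhF call was lost in 11 of 16 alternative fits, and those of psbC and ndhK in 6 each. Of the 12 calls, those of psbA and psbZ were the 2 that held in all 16. The higher gene was ndhI, with 848, 872 and 786 against 499, 605 and 747. All 3 knockout values were above the wild type, although the lowest knockout value (786) lay close to the highest of the wild type (747), with a difference of 0.45 ± 0.10 (adjusted p = 0.00647). Without Col-0 cork replicate 2 the count of called members was 5, and in a fit of only the arrays compared it was 3. The 25S control averaged 2820 ± 189 in Col-0 cork and 1493 ± 1157 in MYB61 knockout cork, and the scanner background 73.4 and 108. With the 25S control as a covariate the count was 9, without psbC, ndhF and ndhK, and with the scanner background it was 10, without psaI, psaJ and ndhF. The 10 include 1 member not called otherwise. The actin 3' to 5' ratio was 1.25 ± 0.07 in MYB61 knockout cork and 1.54 ± 0.23 in Col-0 cork, and its part was not tested.

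In cork of the MYB50 knockout, 21 members were lower and 2 higher, against backgrounds of 20.9% and 21.3%. All 5 psa, 6 of 15 psb, 4 of 6 pet and 6 of 10 ndh genes fell. On the log2 scale the median was -0.56 over the members and 0.00 over all tested probe sets. Without Col-0 cork replicate 2 the count of called members was 14, and with the 25S control as a covariate 13. The actin 3' to 5' ratio was 1.76 ± 0.31 in this group and 1.54 ± 0.23 in Col-0 cork.

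The widest fall was that of ndhF, with 39.4, 47.5 and 37.5 in the knockout and 100, 232 and 195 in Col-0. The groups did not overlap, the log2 difference was -1.67 ± 0.35 and the fold 4.23 (adjusted p = 0.000238). For psaC the values were 140, 121 and 113 against 291, 419 and 304. No array of one group reached the other, at -1.32 ± 0.17 (adjusted p = 3.19e-07). For psbA they were 318, 326 and 193 against 806, 1018 and 469, at -1.37 ± 0.32 (adjusted p = 0.000804).

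Further falls in the photosystems were psbZ (-1.28), psaA (-1.01), psbH (-0.90), psaJ (-0.82) and psbC (-0.82). Outside them petL (-0.97), ndhK (-0.87), ndhE (-0.85), petN (-0.81), ndhJ (-0.79) and petG (-0.71) fell. The 4 genes psbE, psbF, psbL and psbJ did not pass, with differences between -0.18 and 0.08.

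The 2 genes that rose in MYB50 knockout cork were ndhI and petA. For ndhI the values were 1068, 989 and 979 against 499, 605 and 747, at 0.72 ± 0.10 (adjusted p = 1.53e-06). For petA they were 722, 547 and 456 against 361, 410 and 335, at 0.60 ± 0.14 (adjusted p = 0.000866). Neither gene overlapped between the groups. In the same comparison 5 of 10 nuclear photosynthesis genes were higher and 1 lower. LHCB4.2 averaged 347 in the knockout and 150 in Col-0, and PSAE-1 252 and 116, while LHCB4.3 averaged 37.7 and 77.2. Of the other plastid genes, 4 of 7 of ATP synthase and Rubisco and 7 of 20 of the expression machinery were lower and none was higher. In this comparison 20.9% of all tested probe sets were called lower and 21.3% higher.

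In xylem the MYB61 knockout differed little from Col-0. Of 36 members 1 was lower and none higher, with 0.659% of all tested probe sets called lower and 1.22% higher. It was ndhE, a membrane subunit of NDH, with 149, 148 and 82.9 in the knockout and 218, 163 and 303 in Col-0. The groups did not overlap, but the gap between the nearest arrays was small, and the log2 difference was -0.77 ± 0.21 (adjusted p = 0.0469). This call was lost in 9 of 15 alternative fits. The count of called members was 0 without Col-0 replicate 1, Col-0 replicate 3 or knockout replicate 3, and 2 without Col-0 replicate 2. The median log2 difference over the members was -0.23, with 34 of 36 negative, and -0.02 over all tested probe sets.

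In xylem of the MYB50 knockout 9 members were higher and none lower, against backgrounds of 20.4% called higher and 24.2% lower. As a share, 9 of 36 was close to the first of these. Higher were psbA, psbB, psbC, psbD and psbF, petD and petL, and ndhA and ndhI. The median log2 difference was 0.30 over the members and -0.02 over all tested probe sets.

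For psbB, an inner antenna gene, the intensities were 342, 234 and 297 in the knockout and 89.4, 95.4 and 305 in Col-0. The third Col-0 array lay inside the range of the knockout, and the log2 difference of 0.96 ± 0.39 had an adjusted p of 0.0465 (limma). For psbF, a cytochrome subunit of photosystem II, they were 540, 488 and 557 against 343, 310 and 413. Here the groups were apart, at 0.56 ± 0.11 (adjusted p = 0.000143). For ndhI they were 915, 1019 and 900 against 687, 772 and 654, also apart, at 0.42 ± 0.10 (adjusted p = 0.00149).

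The xylem count depended on single arrays. Of the Col-0 arrays, leaving out the first gave 4, the second 3 and the third 17 called members. Of the knockout arrays, leaving out the first gave 5 and the third 3. With the 25S control as a covariate it was 14, and in a fit of only the arrays compared 5. The 25S control averaged 387 ± 283 in MYB50 knockout xylem and 1245 ± 606 in Col-0 xylem.

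**Figure D3:**
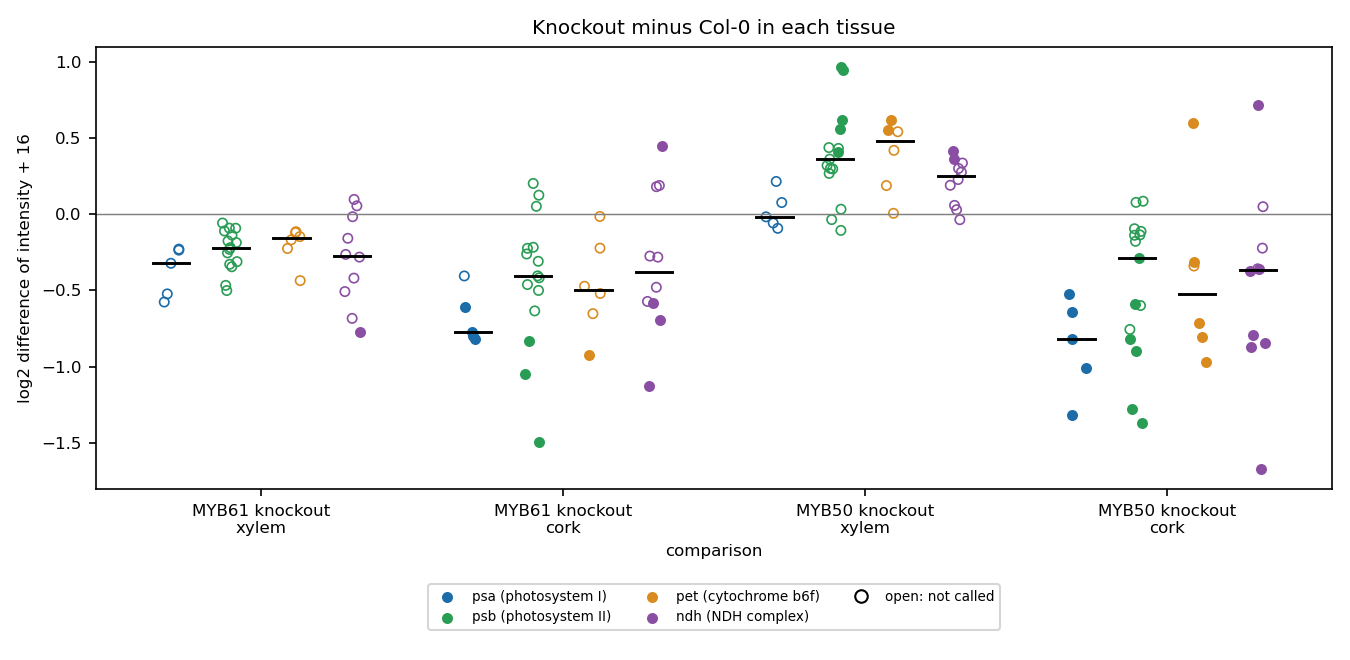
Each point is a member gene, placed at its knockout minus Col-0 difference of log2(intensity + 16) in xylem or cork and coloured by complex. Filled points passed the test and bars are medians. In cork 21 members fell and 2 rose in the MYB50 knockout, and 11 fell and 1 rose in the MYB61 knockout, while in xylem 9 rose in the MYB50 knockout and 1 fell in the MYB61 knockout.

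Whether a knockout acted differently in the 2 tissues was tested as a difference of effects, the knockout effect in xylem minus that in cork. For the MYB50 knockout 20 members had a positive difference that passed and 1 a negative one, against backgrounds of 8.73% and 9.46%. Positive were 3 of 5 psa, 7 of 15 psb, 5 of 6 pet and 5 of 10 ndh genes, and the median over all members was 0.71. The widest were psbA (2.32 ± 0.45, adjusted p = 0.000389), ndhF (2.01 ± 0.49, adjusted p = 0.00394) and psbB (1.56 ± 0.56, adjusted p = 0.0488). They were followed by psbZ (1.54), psaC (1.53) and petL (1.52). The negative one was petA, at -0.59 ± 0.20 (adjusted p = 0.034), since it was 0.01 higher in knockout xylem and 0.60 higher in knockout cork. Leaving out any 1 array kept the count between 16 and 24.

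For the MYB61 knockout no member passed this test in limma, with 0.113% of all tested probe sets called in either direction. An unadjusted p below 0.05 was found for 7 members and for 9.85% of all tested probe sets. The 2 widest differences were those of psbA (1.17 ± 0.45, adjusted p = 0.372) and petL (0.77 ± 0.28, adjusted p = 0.344). The count was 1 without Col-0 cork replicate 3 and 1 without MYB61 knockout cork replicate 3.

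Plastid genes of one known transcription unit did not always share a direction. In the psbD, psbC and psbZ unit and the petL, petG and psaJ unit, all 3 genes were lower in Col-0 xylem and all 3 were lower in MYB50 knockout cork. The log2 differences in MYB50 knockout cork lay between -1.28 and -0.59 in the first and between -0.97 and -0.71 in the second. In the unit that runs ndhH, ndhA, ndhI, ndhG, ndhE, psaC and ndhD, they spread over 2.03, from -1.32 for psaC to 0.72 for ndhI. The genes psaI and petA, of one unit with other genes between them, were also split, with psaI lower (-0.52) and petA higher (0.60). In the psbE, psbF, psbL and psbJ unit no gene passed in cork of either knockout.

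Few members passed in the hypocotyl comparisons. Of the 36 members, 27 passed in none of the 4 comparisons of a mutant with its wild type. The share of all tested probe sets that passed in none of the 4 was not counted. The abi1 and aba1 comparisons share the Ler arrays, and the max4 and axr1 comparisons share the Col-0 arrays. The share of all tested probe sets called in either direction was 10.4% for abi1, 27.1% for aba1, 44.6% for max4 and 36.6% for axr1. The members called numbered 2, 4, 3 and 1 in that order, and each is a smaller share than that of all probe sets. The main fit shares 1 estimate of the spread over all 36 arrays. The SD of the mean log2 level over the members was 0.04 to 0.11 in the hypocotyl groups. It was 0.11 to 0.27 in the xylem and cork groups, and its part in the counts was not tested. Fits of only the arrays compared called 2, 10, 7 and 3 members, and in those fits 6.39%, 30.1%, 47.7% and 37.1% of all probe sets. The 10 members of aba1 are 27.8% of 36 and the 2 of abi1 are 5.56%, both close to the share of all probe sets in their fit. Single arrays moved these small counts. For abi1 the count was 1 without any 1 of the Ler arrays or without abi1 replicate 2 or 3. For aba1 it was 2 without Ler replicate 2 and 1 without aba1 replicate 1, and for max4 it was 1 without max4 replicate 3. For axr1 it was 0 without Col-0 replicate 3, and 2 without Col-0 replicate 2 or axr1 replicate 3.

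In abi1, psbH was lower than in Ler and ndhE was higher. For psbH the intensities were 198, 229 and 164 in abi1 and 312, 303 and 353 in Ler, without overlap, at -0.68 ± 0.16 (adjusted p = 0.00536). For ndhE they were 197, 303 and 236 against 138, 143 and 169, also without overlap, at 0.64 ± 0.21 (adjusted p = 0.045), a call lost in 9 of 15 alternative fits. The small photosystem II gene psbJ was higher in aba1 (0.36 ± 0.13), while psbK (-0.36), petA (-0.41) and ndhI (-0.38) were lower.

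For ndhI the values were 559, 555 and 576 in aba1 and 742, 741 and 732 in Ler. The replicates were nearly equal within each group and well apart between groups (adjusted p = 0.006). In abi1 they were 809, 788 and 621, which enclosed the Ler values. In the direct comparison ndhI was the 1 member that passed, higher in abi1 than in aba1 by 0.37 ± 0.10 (adjusted p = 0.0118), with 15.4% of all tested probe sets called in either direction. No member passed without abi1 replicate 1 or without replicate 2, and 2 passed without replicate 3. The 25S control averaged 66.4 in Ler, 225 in abi1 and 951 in aba1. With this control as a covariate neither ndhI call passed, at -0.33 for aba1 minus Ler (adjusted p = 0.105) and 0.34 for abi1 minus aba1 (adjusted p = 0.0572).

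In max4, psbF (-0.39 ± 0.11) and psbZ (-0.46 ± 0.16) were lower than in Col-0, and ndhC, a membrane subunit gene of NDH, was higher (0.30 ± 0.11). The psbZ intensities were 264, 221 and 209 in max4 and 321, 337 and 313 in Col-0 hypocotyl, without overlap (adjusted p = 0.0204). In axr1, ndhI was the 1 member called, with 753, 860 and 928 against 1039, 1029 and 1163, lower on every array (-0.34 ± 0.10, adjusted p = 0.00912). In the direct comparison ndhA, ndhH and ndhI were higher and psbZ lower in max4 than in axr1, with 32.2% of all tested probe sets called. The count of 4 was 13 in a fit of only the arrays compared, where 38.7% of all probe sets were called. It was 1 without max4 replicate 2, and 2 without axr1 replicate 1 or without axr1 replicate 2. The psbZ difference was -0.68 ± 0.16 (adjusted p = 0.00149).

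Other lists were read in the same hypocotyls. In max4, 7 of 10 nuclear photosynthesis genes were lower and none higher, against a background of 23.7% called lower, with a median log2 difference of -0.62 against -0.04 over the members. PSAE-1 averaged 48.0 in max4 and 94.7 in Col-0, and PSB27, a photosystem II assembly gene, 121 and 206. In axr1, 10 of 14 tested probe sets of mitochondrial respiration genes, a list in which nad1 has several probe sets, were lower and none higher, against 19.2% of all probe sets called lower, with a median of -0.75 against 0.00 over the members. In abi1 and aba1, 3 and 2 of the 10 nuclear photosynthesis genes were lower and none was higher, with 5.76% and 15.3% of all probe sets called lower. The 2 of 10 in aba1 is close to its background.

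**Figure D4:**
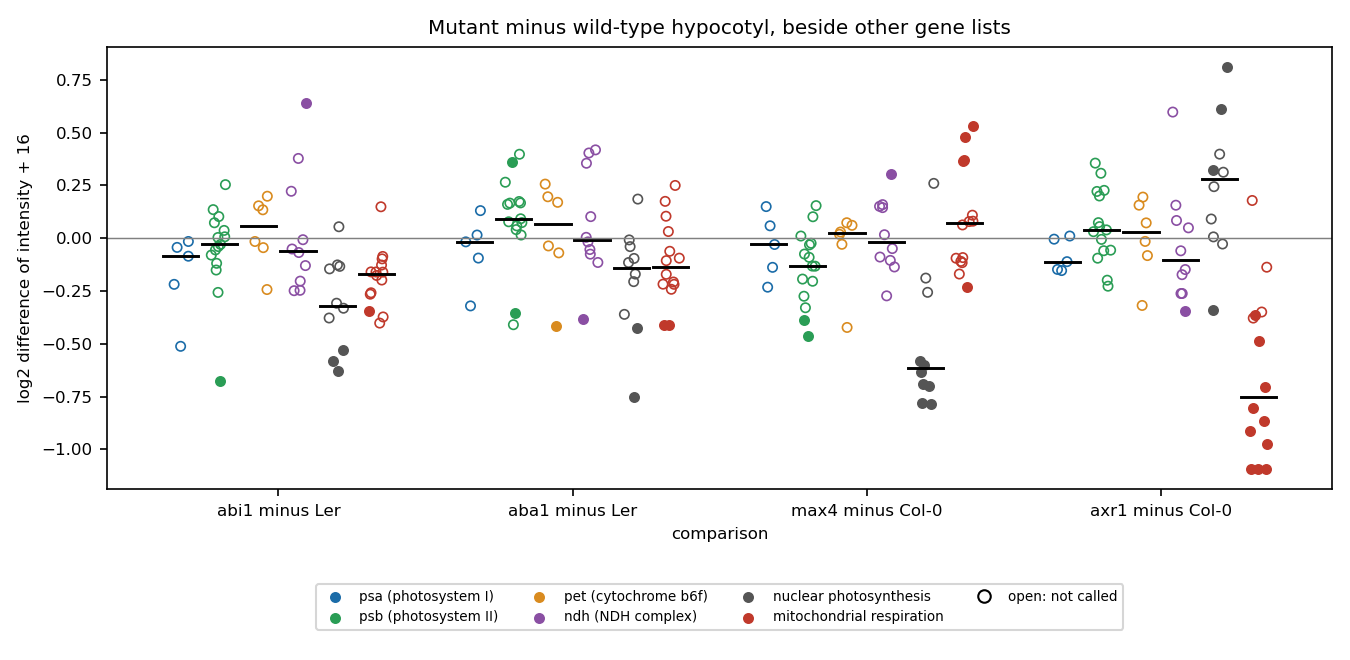
Each point is a gene, placed at its mutant minus wild type difference of log2(intensity + 16) in hypocotyl, for the 4 groups of members and for 2 other lists. Filled points passed the test and bars are medians. The member medians lie near 0, while the nuclear photosynthesis genes lie at -0.62 in max4 and the mitochondrial ones at -0.75 in axr1.

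Between the wild-type hypocotyls, 4 members were higher in Ler than in Col-0 and 7 lower, with 57.8% of all tested probe sets called in either direction. Higher were psbH (0.57), psbC (0.52), psbZ (0.43) and petB (0.23), the gene of cytochrome b6. Lower were psaJ (-0.62), ndhI (-0.53), ndhH (-0.43), ndhC (-0.34), petA (-0.33), psbI (-0.31) and ndhA (-0.27). For ndhI the values were 742, 741 and 732 in Ler and 1039, 1029 and 1163 in Col-0, without overlap (adjusted p = 5.35e-05). The plastid genes of the expression machinery were lower in Ler in 15 of 20 cases. The 57.8% of all tested probe sets counts both directions, and a share called lower is not given here. Of the 11 calls, that of ndhI was the 1 that held in every alternative fit. The count was 2 with the scanner background as a covariate, 7 with the 25S control and 16 in a fit of only the arrays compared. It was 6 without Col-0 replicate 3 or Ler replicate 2 and 7 without Col-0 replicate 2. The scanner background averaged 122 in Ler and 76.6 in Col-0, the 25S control 66.4 and 2380, and the actin 3' to 5' ratio 1.26 ± 0.02 and 1.58 ± 0.14. Sequence differences between the accessions at the probes were not tested.

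Hypocotyl of Col-0 was last set against the mean of Col-0 xylem and cork. Of the members 2 were higher and 5 lower, with 51.2% of all tested probe sets called in either direction. The count of 7 became 4 without Col-0 hypocotyl replicate 1 and 11 without Col-0 cork replicate 3, and it was 6 without cork replicate 2 and 7 without xylem replicate 3. Higher were ndhI (0.70 ± 0.09) and petA (0.62 ± 0.12), and their hypocotyl arrays were above all xylem and cork arrays. For petA the hypocotyl values were 532, 488 and 736. Lower were ndhF (-1.14), psbZ (-0.81), petN (-0.59), psaC (-0.45) and psbH (-0.36), and their hypocotyl values overlapped those of xylem or cork. Over all 18 comparisons ndhG and psbN were the 2 members that never passed, and the matching share of all tested probe sets was not counted.

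The order of groups for ndhI differed from that of most members. Its group means ran from 1077 ± 74.3 in Col-0 hypocotyl, 1039 ± 15.2 in max4 and 1012 ± 48.9 in MYB50 knockout cork down to 617 ± 124 in Col-0 cork and 563 (555 to 576) in aba1. Between them lay MYB50 knockout xylem (945), axr1 (847), MYB61 knockout cork (835), abi1 (739), Ler (738), MYB61 knockout xylem (731) and Col-0 xylem (704). Col-0 cork, the highest group of 25 members, was the next to lowest here, and its arrays (499, 605 and 747) overlapped those of aba1. The Ler values lay within the ranges of abi1 and of both lower xylem groups, and those ranges overlapped each other.

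The members' level is set beside the 25S control here, without a test. Ler and Col-0 hypocotyls had member means of 8.04 ± 0.04 and 8.01 ± 0.11 on the log2 scale, and 25S intensities of 66.4 ± 18.6 and 2380 ± 362. Within the tissue arrays, Col-0 cork was the highest group in both measures, at 8.53 ± 0.25 and 2820 ± 189. In MYB61 knockout cork the replicates had 25S values of 187, 1904 and 2389 and member means of 7.99, 8.30 and 7.97. Col-0 xylem had 770, 1039 and 1928 with 7.72, 7.55 and 8.07. MYB50 knockout xylem had 712, 256 and 192 with 8.10, 7.90 and 8.21. Both measures ranked the replicates alike in the other tissue groups. Those were Col-0 cork (2773, 3027 and 2659 with 8.42, 8.81 and 8.35) and MYB61 knockout xylem (1384, 1687 and 1000 with 7.51, 7.71 and 7.32). The last was MYB50 knockout cork (1388, 781 and 130 with 8.11, 8.03 and 7.89).

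**Figure D5:**
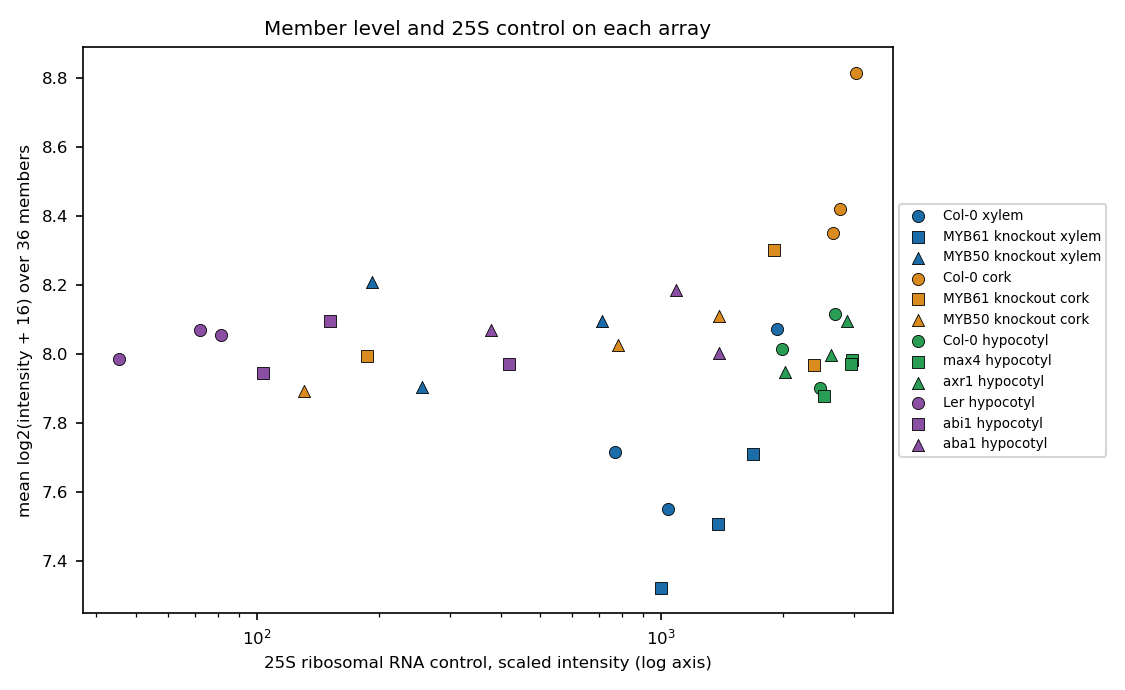
Each point is an array, placed at its 25S ribosomal RNA control intensity (log axis) and its mean log2(intensity + 16) over the 36 members, with colour and shape for the 12 groups. The Ler arrays (25S from 45.6 to 81.3) and the Col-0 hypocotyl arrays (1982 to 2689) share one band of member means, and the 3 Col-0 cork arrays lie above all others.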

How the data were processed

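Arabidopsis RNA was measured on 36 ATH1 arrays, 1 per pooled RNA sample. The authors deposited linear intensities, 1 scaled value per probe set and array, from 0 to 7005.3. From the values, each array's 2% trimmed mean is 100.01, and the sources used here do not name the summarising software. Per the labels' protocols, cRNA was made with an oligo-dT primer. The number of arrays limits the precision.

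The 64 control probe sets were left out, and probe sets were kept from the 30th percentile of mean intensity (14.7) upwards. A model with 12 group means was fitted to log2(intensity + 16) with limma 3.58.1 in R 4.3.3 (trended prior, 24 residual degrees of freedom), and two-sided contrasts were adjusted by Benjamini-Hochberg over 15924 probe sets. The script was tested on simulated data. Other steps used Python 3.11.15, numpy 2.4.6, pandas 2.3.3 and matplotlib 3.10.9.

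Gene names came from GEO's platform annotation, updated through the TAIR10.1 gene table, in which plastid genes were taken by chromosome and mitochondrial genes by lower-case symbol. Copies of plastid sequence in other genomes were not examined. Named were up to 3 called members per direction and complex, plus psaC, psbA, psbZ and ndhI. Other members named in the text were chosen after their values were seen. Members and lists were chosen with earlier results of these data known. As alternatives, the pseudocount was set to 1 or 64, the filter dropped or raised to the 50th percentile, and arrays quantile-normalized. Others were the replicate block, and scanner background or the 25S control as a covariate. Further fits left out cork replicate 1 of both knockouts together, used only the arrays compared, or left out each array in turn. Array weights were estimated but used in no fit. The tissue comparisons within each knockout were added after the data were seen.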

Additional observations from a re-analysis of the deposited data

Results flagged for a closer look

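For 21 members the effect of the MYB50 knockout differed between xylem and cork, tested as a contrast of its own in limma (adjusted p below 0.05). The difference of effects, xylem minus cork on the log2 scale, was 1.09 for psaA, 0.58 for psaB and 1.53 for psaC. Among photosystem II genes it was 2.32 for psbA, 1.56 for psbB, 1.44 for psbC, 1.00 for psbD, 0.70 for psbF, 1.26 for psbH and 1.54 for psbZ. In the cytochrome b6f complex it was -0.59 for petA, 0.50 for petB, 0.96 for petD, 1.13 for petG, 1.52 for petL and 1.35 for petN. For NDH it was 0.66 for ndhD, 0.90 for ndhE, 2.01 for ndhF, 0.65 for ndhH and 1.06 for ndhK. Of these 21 calls, 14 held under every alternative fit run, and the calls of psbB, petD, petA and ndhE were lost in 16, 15, 9 and 8 of 22. With 3 arrays a group, the test for a single outlying value within a group was not run.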

How the results depend on the processing

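Of 169 recounts of called members over 18 comparisons and 10 alternatives, 146 stayed within 1.5 times the reported count. For the MYB61 knockout in xylem the count was 0 with a pseudocount of 64, no filter, quantile normalization, the replicate block and only the arrays compared. For abi1 it was 1 with a pseudocount of 1, no filter, the replicate block and the scanner background. Fits of only the arrays compared have fewer residual degrees of freedom and take the spread from those arrays alone. Among the tissues they gave 3 for MYB61 knockout cork, 5 for MYB50 knockout xylem and 15 for xylem minus cork in the MYB61 knockout. In hypocotyls they gave 10 for aba1, 2 for abi1 minus aba1, 7 for max4, 3 for axr1 and 13 for max4 minus axr1. The 25S covariate gave 14 for MYB50 knockout xylem, 13 for MYB50 knockout cork and 7 for Ler minus Col-0. For axr1 quantile normalization gave 3 and the scanner background 2, and for Ler minus Col-0 the scanner background gave 2 and turned petA to 0.0098 on the log2 scale. The causes were not tested.

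Leaving out each array in turn gave 23 to 28 (xylem minus cork, mean of genotypes), 18 to 28 (in Col-0), 14 to 26 (in the MYB61 knockout) and 5 to 10 (in the MYB50 knockout). For the MYB61 knockout it gave 0 to 2 in xylem, 5 to 13 in cork and 0 to 1 for the difference of effects, and for the MYB50 knockout 3 to 17, 14 to 24 and 16 to 24. In hypocotyls it gave 1 to 3 (abi1), 1 to 3 (aba1), 0 to 2 (abi1 minus aba1), 1 to 3 (max4), 0 to 2 (axr1), 1 to 5 (max4 minus axr1), 6 to 9 (Ler minus Col-0) and 4 to 11 (hypocotyl minus xylem and cork). Of 185 member calls, 94 held under every alternative. Same-numbered arrays correlated above 0.1 in 6 of 27 pairs (-0.10 to 0.22). In 16 of the 27 this correlation was higher than with any array of another number. With 3 arrays a group, these low correlations cannot decide whether the numbers pair samples. The replicate block gave 28 for xylem minus cork in Col-0 and 23 for MYB50 knockout cork. The median SE of a member was 0.17, against 0.12 over all tested probe sets, so smaller differences are harder to call for the members.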
